A study of Rattus norvegicus with 15 samples.

Results

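The 5 genes described here, Scgb1d2, Scgb1d4, Scgb2a1, Sbp and Andpro, encode secreted products of the rat ventral prostate and were taken by symbol from a table of 22436 genes. Scgb1d2, Scgb1d4 and Scgb2a1 are the subunit genes of prostatein, the prostatic steroid-binding protein. Sbp (spermine binding protein) and Andpro, a cystatin-related protein gene, encode other products of the ventral lobe and are not steroid-binding by name. The genes were selected on their FPKM in these samples, over Control, Model and LIPUS, so their levels and differences between groups are given as a description. Where the text says how many of them passed the test fitted over all genes, the count is printed beside the share of all genes that passed, and nothing is read from it in any comparison.

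Prostatein is a secretoglobin, a small disulfide-linked protein built from C1, C2 and C3 chains. The C3 chain, the product of Scgb2a1, pairs with either the C1 chain from Scgb1d2 or the C2 chain from Scgb1d4. It is the main secretion of the ventral lobe of the rat prostate, it binds steroids and cholesterol, and its messenger RNA depends on androgen. Spermine binding protein carries a polyamine that the prostate secretes in quantity, and cystatin-related proteins resemble the cystatins, inhibitors of cysteine proteases. The lateral and dorsal lobes secrete other proteins, among them probasin (Pbsn) and the microseminoprotein (Msmb).

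RNA-seq was made from prostate tissue of SD rats, an outbred laboratory strain, in a study of low-intensity pulsed ultrasound (LIPUS) given to rats with induced prostatitis and pelvic pain. Control comprised 5 libraries from rats labelled as controls with no treatment. Model comprised 5 libraries from rats labelled as the prostatitis model, also with no treatment, and the way the model was induced is not given in the sources used here. LIPUS comprised 5 libraries from rats treated with ultrasound for 4 weeks, at 1 W/cm2 by the sample titles and 1.5 W/cm2 by the treatment field, so the intensity is uncertain. The study's design text places these rats in the prostatitis model. The libraries carry the numbers 6 to 10 in each group and are named Control_6, Model_7 and so on. The labels name neither the lobe sampled nor the animal behind a library, so the spread between libraries may be technical in part.

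The 15 libraries held 29675962 to 36402094 reads in genes. The 13 genes encoded in the mitochondrial genome took 4.23% ± 0.406 (SD, n = 5) of Control reads. They took 34.9% ± 9.18 of Model reads and 59.6% ± 15.7 of LIPUS reads, up to 83.3% in LIPUS_10. Expression was deposited as FPKM, which divides the fragments of a gene by its length and by the library's total, so a larger mitochondrial share lowers the FPKM of every other gene in the same library. Over 12490 tested genes the median log2 difference was −0.90 for Model against Control, −0.60 for LIPUS against Model and −1.48 for LIPUS against Control. Model_7 was the highest Model library in the members' levels and stood apart from the others in the dorsolateral products. Results that rest on Model_7 are given with and without it.

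The sequences before the genes' starts are shown first, because the 5 genes moved together across libraries and 3 of them lie in 1 cluster. Below are the 250 bases before the annotated start of the 3 prostatein subunit genes, from RefSeq on the build GRCr8, read 5′ to 3′ on the gene's strand. Capitals mark matches to the motifs searched. These were AGAACA, a half-site of steroid hormone response elements, the palindrome of that half-site and its reverse complement spaced by 3 bases, the forkhead motif TGTTTAC and the TATA box TATAAA, all on both strands. The half-site is contained in the palindrome.
Scgb1d2, chr1:215656711-215656960, minus strand: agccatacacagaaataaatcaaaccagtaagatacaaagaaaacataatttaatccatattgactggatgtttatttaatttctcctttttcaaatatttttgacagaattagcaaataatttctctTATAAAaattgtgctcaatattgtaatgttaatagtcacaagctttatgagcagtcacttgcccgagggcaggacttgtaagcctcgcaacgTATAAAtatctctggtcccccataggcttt
Scgb1d4, chr1:215755113-215755362, plus strand: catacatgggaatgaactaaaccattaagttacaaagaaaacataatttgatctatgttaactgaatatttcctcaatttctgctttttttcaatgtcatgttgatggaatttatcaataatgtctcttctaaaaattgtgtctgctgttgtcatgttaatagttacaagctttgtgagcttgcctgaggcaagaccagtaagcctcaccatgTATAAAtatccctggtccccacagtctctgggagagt
Scgb2a1, chr1:215922501-215922750, plus strand: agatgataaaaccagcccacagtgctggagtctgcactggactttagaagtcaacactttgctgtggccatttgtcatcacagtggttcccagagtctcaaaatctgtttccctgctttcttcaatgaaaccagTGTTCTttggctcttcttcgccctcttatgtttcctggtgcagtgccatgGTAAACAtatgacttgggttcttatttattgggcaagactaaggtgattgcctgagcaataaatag
Scgb1d2 and Scgb1d4 had the motif TATAAA at −30 and −37, counted from the first base of the match to the start, and Scgb1d2 had another at −122. Scgb2a1 held the half-site on the opposite strand, as TGTTCT, at −116, and the forkhead motif, also on the opposite strand, at −66. No window matched the palindrome, and neither the window of Andpro nor the 3 that RefSeq lists for Sbp matched any of the motifs. Among 33469 windows of the same 300 bases, from 250 before to 50 after the start, 20.7% held the half-site, 14.2% TATAAA, 3.78% the forkhead motif and 0.0149% the palindrome. A match says that these letters occur there and nothing about binding.

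The windows of Scgb1d2 and Scgb1d4 were alike, with 235 identical bases in 321 aligned columns (73.2%) and a longest shared run of 19 bases. All other pairs among the members' windows, including both of these against Scgb2a1, aligned at 48.8% to 52.7% identity. In RefSeq order on chromosome 1 the prostatein cluster ran Scgb1d2, Scgb1d4, Scgb2a1, with a pseudogene of Scgb1d2 and the relative Scgb1d2l1 beside them. Andpro lies on chromosome 3 near Cst3, next to a transcribed pseudogene of its own, and Sbp lies on chromosome 10 beside Zg16b. Reads of such near copies may have been split or lost in the authors' counting, so the levels of Scgb1d2, Scgb1d4 and Andpro are uncertain to that extent.

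In control tissue the 5 genes were among the most abundant transcripts. They took 26.7%, 15.4%, 19.5%, 24.1% and 24.1% of all reads in Control_6 to Control_10, a mean of 21.9% ± 4.50 (SD, n = 5). Each was among the 9 most abundant genes outside the mitochondrial set in every Control library. In Model they took 0.104% in Model_6, 6.68% in Model_7, 1.80% in Model_8, 0.0258% in Model_9 and 0.302% in Model_10, a mean of 1.78% ± 2.83, or 0.557% ± 0.834 without Model_7. In LIPUS they took 7.85%, 5.01%, 3.98%, 16.5% and 0.373% in LIPUS_6 to LIPUS_10, a mean of 6.75% ± 6.08. Every Model share lay below every Control share, while the LIPUS shares reached into both other groups. In these bulk samples fewer secretory cells, less RNA per cell and a different lobe in the tissue taken cannot be told apart.

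**Figure D1:**
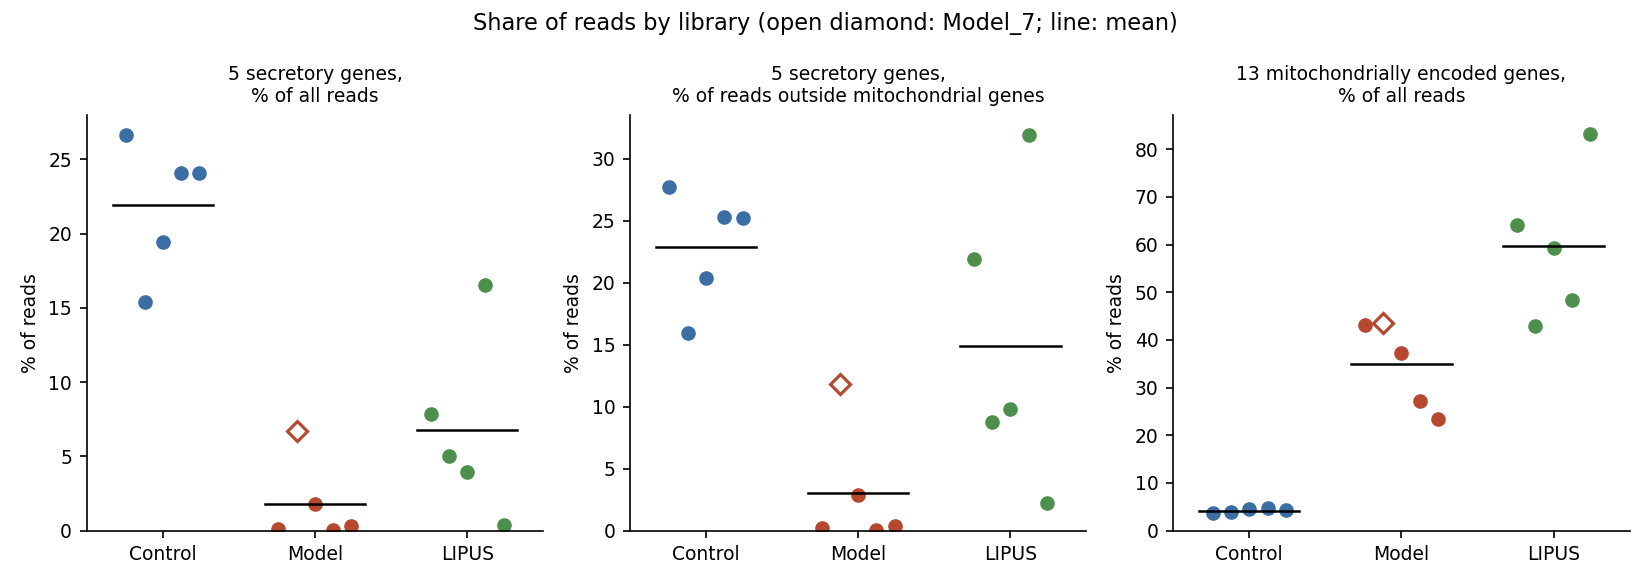
Share of reads per library (y axes, %) of the 5 secretory genes among all reads, of the same genes among reads outside the mitochondrial genes, and of the 13 mitochondrially encoded genes, by group. Points are libraries, the open diamond is Model_7 and lines are group means. LIPUS_9 rises from 16.5% to 32.0% when mitochondrial reads are left out, which puts it above every Control library.

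Setting the mitochondrial reads aside brought LIPUS_6 into the Control range, moved LIPUS_9 from within that range to above it and left Model below it. The 5 genes made up 27.7%, 16.0%, 20.4%, 25.3% and 25.2% of the remaining reads in Control_6 to Control_10. They made up 0.182%, 11.8%, 2.87%, 0.0355% and 0.395% in Model_6 to Model_10, all still below the lowest Control library. They made up 21.9%, 8.79%, 9.80%, 32.0% and 2.23% in LIPUS_6 to LIPUS_10, so that LIPUS_6 and LIPUS_9 lay within or above the Control range. The mitochondrial share moved with the groups, and its part in the members' differences was not tested beyond this rescaling.

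Scgb2a1 encodes the C3 chain that every prostatein molecule carries. Its level was 70905, 53253, 61403, 74947 and 87412 FPKM in Control_6 to Control_10. In Model_6 to Model_10 it was 394, 21145, 5406, 119 and 913 FPKM. In LIPUS_6 to LIPUS_10 it was 19696, 16726, 12433, 43600 and 1027 FPKM. All Control libraries were above all libraries of both other groups, and Model_7 was above 4 of the 5 LIPUS libraries. On the log2(FPKM + 0.1) scale the difference was −5.64 (SE 1.13) for Model against Control, 3.04 (SE 1.13) for LIPUS against Model and −2.60 (SE 1.13) for LIPUS against Control.

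Scgb1d2 encodes the C1 chain. Its level was 70274, 36905, 53471, 60374 and 56360 FPKM in Control_6 to Control_10. In Model_6 to Model_10 it was 296, 23194, 6460, 55.0 and 836 FPKM. In LIPUS_6 to LIPUS_10 it was 23130, 13122, 11472, 39555 and 1370 FPKM. LIPUS_9 lay above Control_7, so LIPUS and Control overlapped for this gene, and Model_7 was above 4 of the 5 LIPUS libraries. The log2 differences were −5.56 (SE 1.22) for Model against Control, 3.30 (SE 1.22) for LIPUS against Model and −2.26 (SE 1.22) for LIPUS against Control.

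Scgb1d4 encodes the C2 chain. Its level was 82043, 44507, 67164, 73863 and 81805 FPKM in Control_6 to Control_10. In Model_6 to Model_10 it was 320, 23843, 5789, 57.0 and 854 FPKM. In LIPUS_6 to LIPUS_10 it was 25049, 13307, 11486, 40476 and 1162 FPKM. All LIPUS libraries were below all Control libraries, by a narrow gap between LIPUS_9 and Control_7, and Model_7 was above 3 of the 5 LIPUS libraries. The log2 differences were −5.87 (SE 1.23), 3.27 (SE 1.23) and −2.60 (SE 1.23) in the same order of comparisons.

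Sbp, whose product binds spermine, was the least abundant of the 5 per length and the most even among controls. Its level was 7154, 5865, 5931, 7259 and 7941 FPKM in Control_6 to Control_10. In Model_6 to Model_10 it was 19.6, 1470, 550, 3.12 and 86.3 FPKM. In LIPUS_6 to LIPUS_10 it was 2343, 1119, 822, 4618 and 99.3 FPKM. The value in Model_9 rests on 172 reads, the fewest behind any member in any library, so counting error was small beside the spread between libraries. All LIPUS libraries were below all Control libraries. The log2 differences were −6.32 (SE 1.28), 3.55 (SE 1.28) and −2.76 (SE 1.28).

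Andpro, the cystatin-related member, had the widest spread in Control, with a highest to lowest ratio of 2.33 against 1.35 for Sbp. Its level was 87550, 37530, 46844, 68037 and 52393 FPKM in Control_6 to Control_10. In Model_6 to Model_10 it was 203, 12934, 3641, 54.3 and 860 FPKM. In LIPUS_6 to LIPUS_10 it was 24482, 13985, 10939, 61787 and 882 FPKM. LIPUS_9 lay above 3 of the 5 Control libraries, and Model_7 was above 2 of the 5 LIPUS libraries. The log2 differences were −6.04 (SE 1.22), 3.76 (SE 1.22) and −2.28 (SE 1.22).

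**Figure D2:**
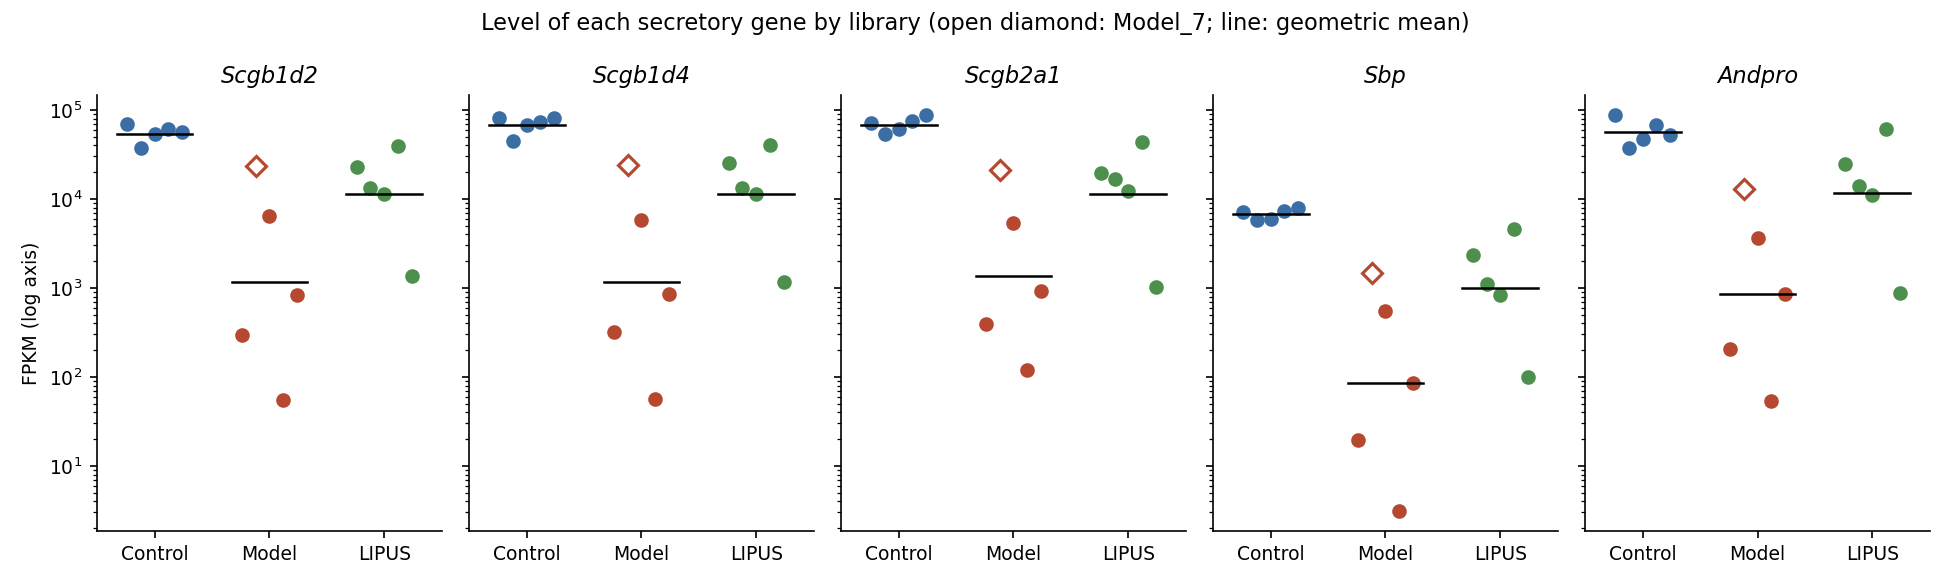
FPKM of each secretory gene (y axis, log scale) in every library by group. Points are libraries, the open diamond is Model_7 and lines are geometric means. In every panel Model_9 is the lowest library and Model_7 the highest Model library, and LIPUS_10 lies below the other LIPUS libraries.

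The order of the libraries was nearly the same for all 5 genes. Model_9 was lowest, then Model_6, then Model_10, LIPUS_10 and Model_8 for each gene, and the 4 other LIPUS libraries lay above Model_8. Within Model the levels of Scgb1d2 spanned a 422-fold range and those of Sbp a 471-fold range, or 118-fold and 176-fold without Model_7, against 1.90-fold and 1.35-fold within Control. Because of this spread the comparison depends on the kind of mean. The arithmetic mean of Scgb1d2 in Control, 55477 ± 12173 FPKM (SD, n = 5), was 8.99 times that in Model, 6168 ± 9878 FPKM, while the fitted difference of −5.56 corresponds to a 47.1-fold lower geometric mean. Without Model_7 the Model mean was 1912 ± 3050 FPKM (SD, n = 4), the Control mean was 29.0 times that, and the fitted difference of −6.64 corresponds to a 99.7-fold lower geometric mean.

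Across the genes tested, the members stood at the edge of the Model against Control differences. Their median log2 difference was −5.87 beside −0.90 for all tested genes, and only 7 tested genes had a lower value than Sbp. All 5 members had an adjusted p under 0.05 (limma, Benjamini-Hochberg over all tested genes) and were lower, where 43.1% of all tested genes were called lower and 2.95% higher. All 5 also had Model libraries wholly below Control, as did 41.4% of tested genes (3.16% lay wholly above). Without Model_7 the median was −6.96, and without Model_9 it was −4.78.

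**Figure D3:**
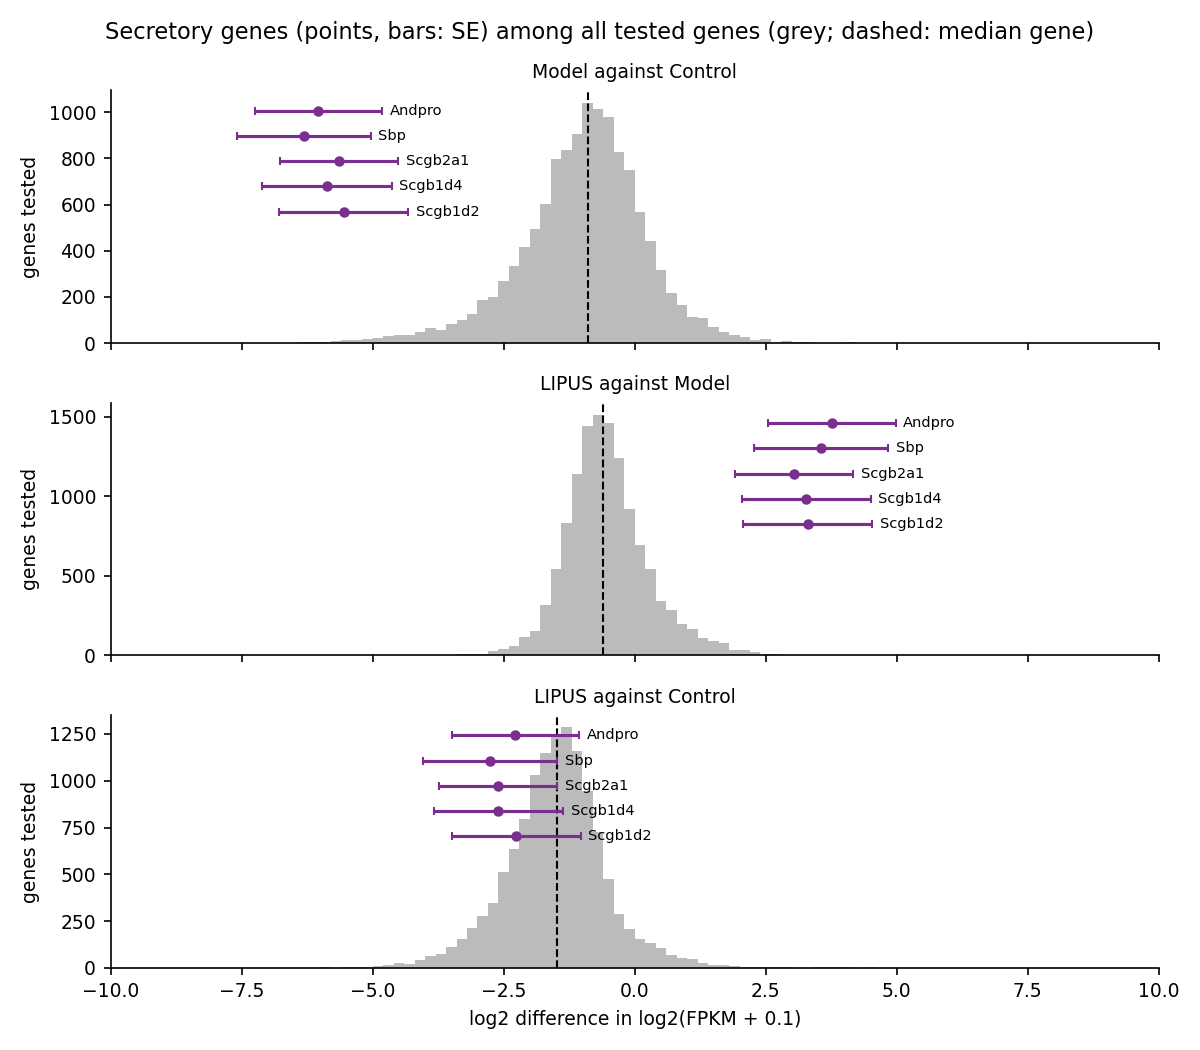
Log2 differences (x axis) of all 12490 tested genes as histograms (y axis, number of genes) in each comparison, with the 5 secretory genes as points with SE bars, stacked for legibility. The dashed line is the median gene. The members lie at −5.56 to −6.32 in the upper panel and at 3.04 to 3.76 in the middle panel, and closer to the median gene in the lower panel.

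LIPUS libraries had higher member levels than Model on average, with overlap in every gene. The median member difference was 3.30, beside −0.60 for all tested genes. Andpro alone was called higher, where 1.31% of tested genes were called higher and 13.3% lower. In 20 of 27 alternatives, among them all 3 changes of scaling and the replicate block, no member was called. Few other genes were called there. Median-of-ratios scaling, scaling to reads outside mitochondrial genes and quantile normalization called 2.73%, 1.91% and 2.09% of all tested genes higher. The replicate block called 3 genes in either direction. No member had groups that did not overlap, which 0.536% of tested genes had in the higher and 4.22% in the lower direction. The median was 4.38 without Model_7, with 5 members called where 4.39% of all tested genes were called higher and 28% lower. It was 4.09 without LIPUS_10, with 3 members among 1177 genes called in either direction. Without Model_9 it was 2.20, with no member among the 8 genes called. Model_7, at 12.1 times the mean of the other 4 Model libraries for Scgb1d2, lay among the LIPUS libraries, and LIPUS_10 lay among the Model libraries.

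Against Control, the members in LIPUS were lower by amounts nearer to those of other genes. Their median difference was −2.60, beside −1.48 for all tested genes. Scgb2a1 alone was called lower, where 74.4% of tested genes were called lower and 0.953% higher. Scgb1d4, Scgb2a1 and Sbp had LIPUS libraries wholly below Control, as did 59.4% of tested genes (0.416% lay wholly above). After median-of-ratios scaling, which sets the typical gene level equal between libraries, the members' median was −1.17 and none was called, as in 15 of the 27 alternatives in all. Under that scaling 14.3% of all tested genes were called lower and 11.6% higher. All 3 comparisons share libraries, so their values are not independent of each other.

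Inside a library, ratios between members do not depend on how the library was scaled, and they differ from the levels in what they show. The sum of Scgb1d2 and Scgb1d4 over Scgb2a1, the chains that pair with C3 over C3 itself, averaged 0.84 ± 0.21 (SD, n = 5) in log2 units among Control libraries, 0.76 ± 0.52 among Model and 1.00 ± 0.28 among LIPUS libraries. The 3 groups overlapped, and Model_9 at −0.09 was the lowest library. Andpro over Scgb2a1 was at −0.29 ± 0.40, −0.69 ± 0.40 and 0.03 ± 0.35, again with overlap. Sbp over Scgb2a1 was at −3.34 ± 0.10 in Control, −4.03 ± 0.80 in Model and −3.50 ± 0.39 in LIPUS, and Model_9 at −5.25 was lowest. Sbp thus kept a narrower proportion to Scgb2a1 among Control libraries than among the others.

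Of the 7 ratios computed, that of Scgb1d2 to Scgb1d4 alone separated Control from both other groups, and it was picked out after its values were seen. Its log2 value was −0.22, −0.27, −0.33, −0.29 and −0.54 in Control_6 to Control_10. In Model_6 to Model_10 it was −0.11, −0.04, 0.16, −0.05 and −0.03. In LIPUS_6 to LIPUS_10 it was −0.11, −0.02, −0.002, −0.03 and 0.24. Every Control library had less Scgb1d2 than Scgb1d4 per length, and the ratio lay higher in all Model and LIPUS libraries, Model_7 and Model_9 included. Means were −0.33 ± 0.12, −0.02 ± 0.10 and 0.01 ± 0.13 (SD, n = 5). These are neighbouring genes with similar promoters, and whether reads were shared between them or with the pseudogene beside them was not tested.

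**Figure D4:**
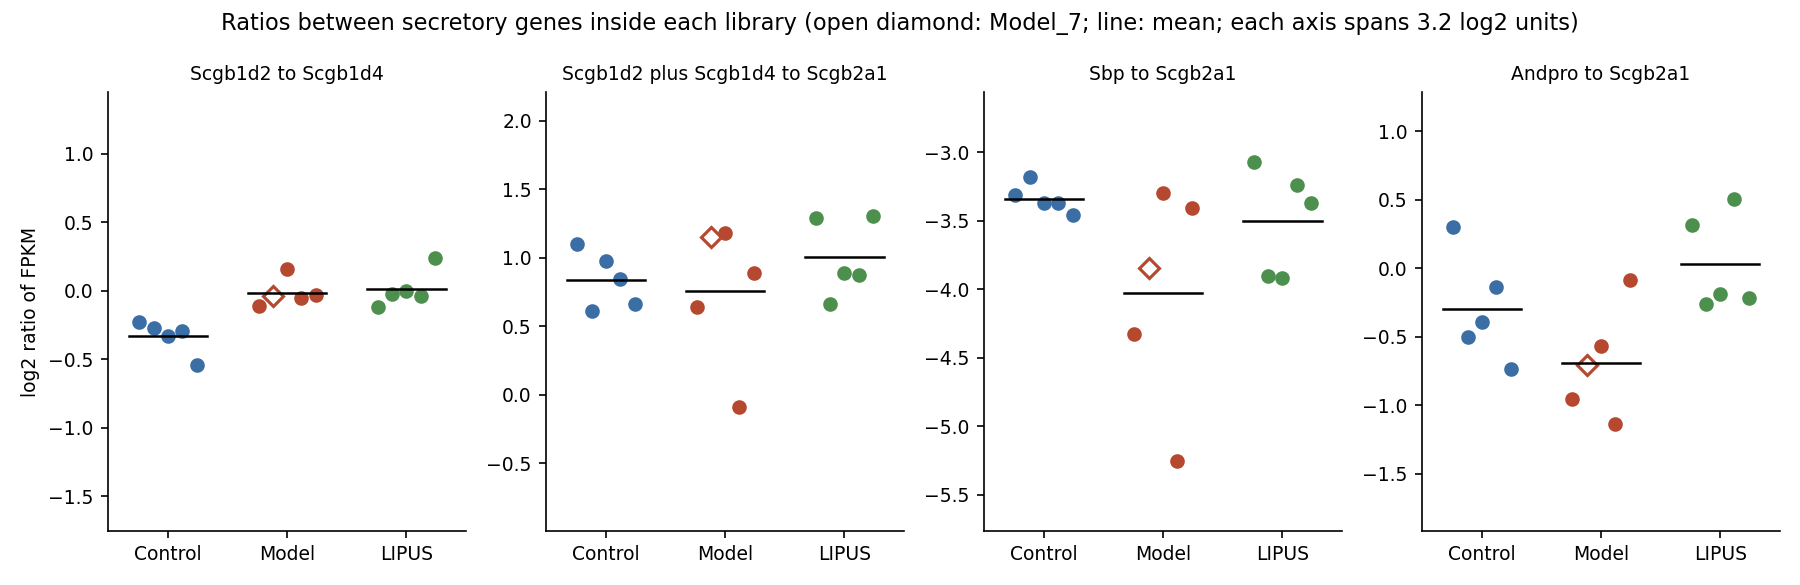
Log2 ratios of FPKM between secretory genes (y axis) inside each library, by group. Points are libraries, the open diamond is Model_7, lines are means and every panel spans the same number of log2 units. For Scgb1d2 to Scgb1d4 all Control libraries lie at or below −0.22 and all others at or above −0.11, while the other panels overlap.

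Over the 15 libraries, log2 levels of any member pair had Pearson correlations of 0.992 to 0.999, and over the 14 without Model_7 of 0.993 to 0.999. Within groups of 5 they were 0.987 to 1.000 in Model and 0.983 to 1.000 in LIPUS, against 0.548 to 0.963 in Control, where levels varied little. Genes of a library share its depth and its mitochondrial share, so these values are a description.

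Among 10211 other genes, the pattern of the 3 prostatein subunits after median-of-ratios scaling was followed most closely by the 6 named next. P22k15, a cystatin-related protein gene akin to Andpro, had a correlation of 0.998 over 15 libraries (0.998 without Model_7). Klk1c9, a glandular kallikrein gene, followed at 0.991 (0.990). Next came Adm, encoding the peptide adrenomedullin, at 0.979 (0.985), Mal2, a membrane-traffic gene of epithelial cells, at 0.979 (0.979), Gna11, a G protein subunit gene, at 0.972 (0.973) and Mat2a, which makes the methyl donor S-adenosylmethionine, at 0.958 (0.960). The median gene was at −0.01. Genes named only by a locus number were passed over. P22k15 averaged 9678 ± 2198 FPKM (SD, n = 5) in Control, 2863 ± 2167 in LIPUS and 1085 ± 1750 in Model, of which Model_7 had 4116 and the other 4 Model libraries averaged 327 ± 506. Klk1c9 averaged 4182 ± 1377 FPKM in Control, 1240 ± 1283 in LIPUS and 334 ± 584 in Model, of which Model_7 had 1366 and the other 4 averaged 75.3 ± 103. Since these genes were chosen for this pattern, their levels are given without a test.

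Within the prostatein cluster, the relative Scgb1d2l1 was far less abundant per length, at 13.4 ± 3.57 FPKM (SD, n = 5) in the controls. It was at 1.38 ± 2.75 FPKM in Model, with 6.28 in Model_7, and at 2.40 ± 1.78 FPKM in LIPUS. Among the genes that flank the cluster Incenp, a chromosome passenger gene, averaged 5.40, 0.873 and 1.02 FPKM in Control, Model and LIPUS. Fth1, encoding the ferritin heavy chain, averaged 910, 5499 and 1815 FPKM. Among other secretoglobin genes Scgb3a1 was tested and was not called in any comparison (Model against Control 0.87, SE 1.11, adjusted p = 0.54).

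Other secretory products of the accessory glands were taken as a list of 11 tested genes, which holds neither P22k15 nor Klk1c9. Between Model and Control 2 of the 11 were lower and none was higher, where 43.1% of all tested genes were lower and 2.95% higher, and their median was 0.06 beside −0.90 for all tested genes. Zg16b, the neighbour of Sbp, fell by 1.80 on the log2 scale (SE 0.68, adjusted p = 0.0388) and Mgp, encoding matrix Gla protein, fell by 1.24 (SE 0.33, adjusted p = 0.00647). The transglutaminase gene Tgm4 was at −2.49 (SE 1.05, adjusted p = 0.0619), Spink1l at 1.93 (SE 1.33, adjusted p = 0.243), Pbsn at 1.51 (SE 1.37, adjusted p = 0.378) and Msmb at 2.23 (SE 2.10, adjusted p = 0.397). The call of Zg16b was lost in 12 of 27 alternatives. After median-of-ratios scaling none of the 11 was called, where 20.2% of all tested genes were lower and 15.3% higher. Without Model_7 the count was 2 lower and 3 higher, where 47.3% of all tested genes were lower and 5.03% higher. The genes higher without Model_7 were Pbsn at 3.2 (SE 0.78, adjusted p = 0.00273), Msmb at 4.78 (SE 1.24, adjusted p = 0.00422) and the seminal vesicle gene Svs4 at 2.47 (SE 0.89, adjusted p = 0.0273).

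The dorsolateral products ran against the ventral ones in several libraries. Pbsn and Msmb together were at 3895, 60207, 5516, 10147 and 27264 FPKM in Control_6 to Control_10. They were at 95365, 309, 126573, 168458 and 177705 FPKM in Model_6 to Model_10. Pbsn alone was at 71781 to 137386 FPKM in the 4 Model libraries other than Model_7 and at 3199 to 55910 FPKM in Control, so these 4 lay wholly above Control. Msmb alone was at 23584 to 40320 FPKM in the same 4 and at 174 to 4296 FPKM in Control, again without overlap, while Model_7 had 304 FPKM of Pbsn and 4.63 of Msmb. Pbsn and Msmb together were at 2962, 42864, 21730, 29964 and 5712 FPKM in LIPUS_6 to LIPUS_10. Model_7, the Model library with the highest ventral levels, had the lowest dorsolateral sum of all 15, and Control_7, with the lowest ventral share in Control, had the highest dorsolateral sum in Control. Other libraries did not run this way. LIPUS_9 had the highest ventral sum in LIPUS, at 190036 FPKM, and its dorsolateral sum of 29964 FPKM was below that of LIPUS_7 only. Control_8 was low in both among Control libraries, with a ventral share of 19.5% and a dorsolateral sum of 5516 FPKM. LIPUS_10 was low in both on FPKM. Mitochondrial genes took 83.3% of its reads, which lowers the FPKM of all its other genes, and the sums given here were not rescaled for this. Seminal vesicle genes, 6 in the table, summed to 471 to 93624 FPKM in Control, 46.3 to 92825 in Model and 302 to 19709 in LIPUS, with Model_7 again lowest. Which lobe was sampled in each library is not labelled, so lobe and condition cannot be told apart.

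**Figure D5:**
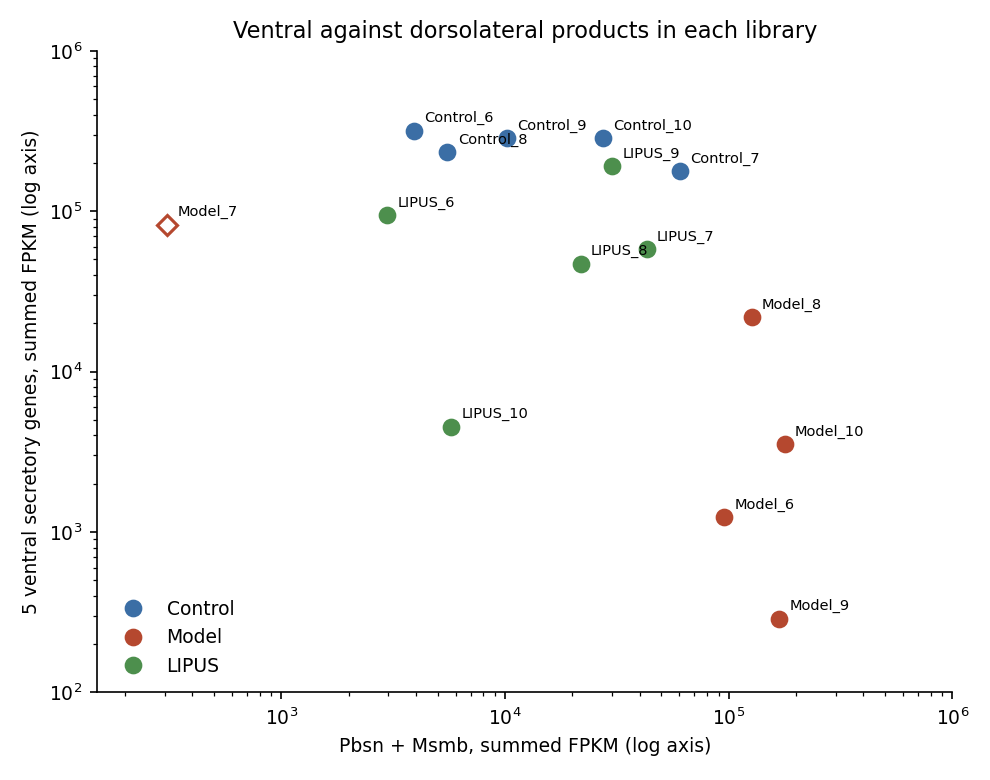
Summed FPKM of the 5 ventral secretory genes (y axis, log scale) against the summed FPKM of Pbsn and Msmb (x axis, log scale), 1 point per library, coloured by group, with Model_7 as an open diamond. The other 4 Model libraries lie at the right, at 95365 FPKM or more of Pbsn and Msmb, and Model_7 at 309 lies at the far left. Of these 4, Model_8 is the highest on the y axis, at 21845 FPKM, above the middle of the axis.

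Among 12 tested genes listed as androgen pathway, 5 (41.7%) were lower in Model than in Control and none was higher, with a median of −1.03. The list mixes steroid reductases and coactivators with other genes. It does not sort them by whether androgen raises or lowers them, so a fall has no set meaning for androgen action. Among all tested genes 43.1% were lower and the median was −0.90, so the list's share was near the background. Without Model_7, where 47.3% of all tested genes were lower and 5.03% higher, 5 were lower and 2 higher. The 2 were Pmepa1 at 1.47 (SE 0.45, adjusted p = 0.0111) and Ncoa4 at 1.00 (SE 0.31, adjusted p = 0.0114). The protease gene Tmprss2 fell by 1.79 (SE 0.33, adjusted p = 0.000396), the acid phosphatase gene Acp3 fell by 3.11 (SE 0.61, adjusted p = 0.000727) and the chaperone gene Clu fell by 2.32 (SE 0.55, adjusted p = 0.00282). Ncoa2, a nuclear receptor coactivator gene, fell by 1.54 (SE 0.45, adjusted p = 0.0105). After median-of-ratios scaling 3 genes of the androgen pathway were lower and 3 higher, where 20.2% of all tested genes were lower and 15.3% higher. The calls of Tmprss2, Acp3 and Clu held in all 27 alternatives, and the 3 changes of scaling lost that of Ncoa2, which was at −0.79 (SE 0.38, adjusted p = 0.123) after median-of-ratios scaling.

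The ligand of Sbp is spermine, a polyamine, and a list of polyamine genes was measured beside it. The list holds genes of polyamine synthesis together with genes of its breakdown and regulation. Of 9 tested genes of polyamine binding and synthesis 2 (22.2%) were lower in Model than in Control and none was higher, where 43.1% of all tested genes were lower and 2.95% higher. Azin1, an antizyme inhibitor gene, fell by 1.45 (SE 0.43, adjusted p = 0.0117) and Srm, spermidine synthase, fell by 1.21 (SE 0.47, adjusted p = 0.0444). Odc1, ornithine decarboxylase, was at −0.79 (SE 0.43, adjusted p = 0.14) and Oaz1, an antizyme gene, at 0.35 (SE 0.32, adjusted p = 0.386). The call of Srm was lost in 18 of 27 alternatives. After median-of-ratios scaling none of the polyamine binding and synthesis genes was lower and 3 were higher, where 20.2% of all tested genes were lower and 15.3% higher. Of 5 tested cystatins none was called for Model against Control by limma, on FPKM or on the recovered reads, and 1 had an unadjusted p under 0.05. Cst3, the neighbour of Andpro, was at −0.75 (SE 0.32, adjusted p = 0.0618), Cstb at −0.63 (SE 0.35, adjusted p = 0.144), Cst7 at −1.06 (SE 0.91, adjusted p = 0.354) and Cyss at −0.93 (SE 1.14, adjusted p = 0.522). Without Model_7 Cstb was called by limma, at −0.93 (SE 0.29, adjusted p = 0.0139), while Cst6 lay on the other side, at 0.32 (SE 0.39, adjusted p = 0.514). After median-of-ratios scaling 1 of the cystatins was called higher and none lower, where 20.2% of all tested genes were lower and 15.3% higher. The count was the same after scaling to reads outside mitochondrial genes, where 22.9% of all tested genes were lower and 9.96% higher. The list does not hold P22k15 or 2 rows described as similar to cystatin S precursor, LOC296235 and RGD1566383, which were picked out after their values were seen. LOC296235 was at −5.63 (SE 1.16, adjusted p = 0.00104) and RGD1566383 at −3.96 (SE 1.30, adjusted p = 0.0197) for Model against Control. RGD1566383 had 127 FPKM in Model_7, above the highest Control library at 92.3, and at most 30.2 in the other Model libraries.

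Between LIPUS and Model 13.3% of all tested genes were lower and 1.31% higher. In the androgen pathway 3 of 12 tested genes (25.0%) were lower and none higher, among them Srd5a2, a steroid reductase gene, at −2.77 (SE 0.90, adjusted p = 0.0475). In polyamine binding and synthesis 2 of 9 (22.2%) were lower and none higher, among them Paox, polyamine oxidase, at −1.13 (SE 0.35, adjusted p = 0.0417). Of the cystatins Cst6 fell by 1.39 (SE 0.38, adjusted p = 0.0306). Among the 11 other secretory products none was called by limma, on FPKM or on the recovered reads, and 1 had an unadjusted p under 0.05. These calls were fragile: of 27 alternatives 21 lost that of Srd5a2, 19 that of Paox and 11 that of Cst6. Median-of-ratios scaling left no gene of these lists called, where 1.49% of all tested genes were lower and 2.73% higher. Without Model_7, where 28.0% of all tested genes were lower, 5 of 12 androgen pathway genes and 5 of the 11 other secretory products were lower.

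Markers of the epithelium that makes these secretions, and of its surroundings, were measured beside them. Of 10 tested luminal epithelium markers 4 were lower in Model than in Control and none was higher, where 43.1% of all tested genes were lower: the junction genes Cldn7 (−1.48, SE 0.33, adjusted p = 0.002), Cldn4 (−1.75, SE 0.42, adjusted p = 0.00283) and Cdh1 (−1.99, SE 0.58, adjusted p = 0.0104) and the protease inhibitor gene Spint1 (−1.92, SE 0.50, adjusted p = 0.00511). After median-of-ratios scaling none of the luminal epithelium markers was lower and 2 were higher, where 20.2% of all tested genes were lower and 15.3% higher. After scaling to reads outside mitochondrial genes 4 were lower and 1 higher, where 22.9% of all tested genes were lower and 9.96% higher. The calls of Cldn7, Cldn4, Cdh1 and Spint1 were each lost in 1 of 27 alternatives. Summed, the 10 markers were at 612 to 687 FPKM in Control, 339 to 665 in Model, lowest in Model_7, and 130 to 420 in LIPUS, and none was at 0 in a whole group. In the same comparison all 5 tested basal epithelium markers, 4 of 6 smooth muscle, all 6 fibroblast and all 4 endothelium markers were lower. After median-of-ratios scaling, where 20.2% of all tested genes were lower, 3, 2, 4 and 3 of these were. Of 6 tested macrophage markers 3 were lower and none was higher, Csf1r at −2.42 (adjusted p = 0.000856), Cd163 at −1.26 (adjusted p = 0.0113) and Cd14 at −1.963 (adjusted p = 6.00e-05), while Cd68 was at 0.16 and C1qa at 0.15, neither called. Of 3 tested T cell markers Cd3g was higher, at 1.63 (SE 0.55, adjusted p = 0.0227), Cd4 was lower, at −1.79 (SE 0.42, adjusted p = 0.00281), and Cd8a was at 0.81 (SE 0.95, adjusted p = 0.502). After median-of-ratios scaling the calls of Csf1r, Cd14 and Cd3g remained, those of Cd163 and Cd4 were lost, and C1qa was called higher at 0.93 (adjusted p = 0.0382). Their part in the members' differences was not tested.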

How the data were processed

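RNA-seq of 15 rat prostate samples, 5 in each of 3 groups assigned from the sample titles, was analysed from a single table of FPKM values deposited by the authors. Per the labels' protocols, TRIzol was used to extract total RNA and the VAHTS Universal V5 kit to build libraries. The submitters' processing notes name the build rn6 and R 3.2.0, HTSeq, HISAT2, DESeq2, SAMtools and fastp, and strandedness is not given in the sources used here.

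Whole reads were recovered from the FPKM steps within a tolerance of 0.001 for all 22436 genes, giving library totals, read shares and gene lengths. Intervals from these reads would cover counting error only. The same-group pair closest to each other had a chi-square of 80.3 per degree of freedom, so no library was a plain repeat of another in its group. Pairs across groups were not examined, and this check cannot tell whether libraries share an animal.

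Genes above 0.5 FPKM in at least 5 of 15 samples (12490, all 5 members among them) were tested on log2(FPKM + 0.1) with limma 3.58.1 in R 4.3.3, group only, all samples in 1 fit, empirical Bayes with an intensity trend, two-sided, with Benjamini-Hochberg adjustment and calls at an adjusted p under 0.05. A log2 difference on this scale understates changes of low genes. The procedure was tested on simulated data. The samples are not stated to be separate animals, so the p-values reflect spread among libraries, which may be technical.

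The members and the gene lists were chosen with earlier results of these data known. The rule for named genes took the members, up to 4 tested genes of each function list with the smallest p for Model against Control, other secretoglobins of at least 1 FPKM in a group, and the 6 genes most like the subunits. Others were named after their values were seen: Pbsn, Msmb, Svs4, Pmepa1, Ncoa4, Srd5a2, Paox, Cst6, LOC296235, RGD1566383, the neighbours of the members and the marker genes. Alternatives were scaling (median of ratios over 10313 genes, reads outside mitochondrial genes, quantile), the pseudocount, the filter, a replicate block, fits on fewer groups, array weights, limma-voom on recovered reads and leaving out each library. Of the gene IDs 21125 matched the RefSeq table, whose build GRCr8 differs from that of the files. It gave neighbours and promoter sequences only. Some items of the gene lists and motifs are not reported here and were left out of the list counts.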

Additional observations from a re-analysis of the deposited data

Results flagged for a closer look

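Within Model, the library Model_7 lay far above the other 4 on the linear scale, for 4 of the members and for the read shares. Its gap to the next library in FPKM or percent took more than 0.71 of the group's range, the 95% limit for 5 normally spread values. Model_7 held 23194 FPKM of Scgb1d2, 23843 of Scgb1d4, 21145 of Scgb2a1 and 12934 of Andpro. The 5 members took 6.68% of its reads and 11.8% of its reads outside the mitochondrial genes. These 6 flags come from 45 groups of values examined, and they are not independent, since they share 1 library. Levels of Scgb1d2 spanned a 422-fold range within Model, so the limit for a normal spread is only a rough guide and gives no chance rate. On the log2 scale Scgb1d2 was at 14.50 in Model_7, 12.66 in Model_8 and 9.71 in Model_10. There Model_7 was nearer to Model_8 than Model_8 was to Model_10. Sbp, at 1470 FPKM in Model_7, was not marked.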

How the results depend on the processing

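The median member difference kept its direction and moved by less than the replicate spread under all 27 alternatives. Leaving out 1 library each gave −6.96 to −4.78 for Model against Control, 2.20 to 4.38 for LIPUS against Model and −3.06 to −1.74 for LIPUS against Control. Counts of genes called moved more. For Model against Control the 5750 calls became 3379 with a stricter filter and 8953 with array weights, and 4889 to 6979 without 1 library. For LIPUS against Model the 1820 calls became 527 after median-of-ratios scaling, 315 after scaling to reads outside mitochondrial genes, 479 after quantile normalization, 812 with no filter, 3 with only the groups compared, 3637 with array weights, and 8 to 4576 without 1 library (8 without Model_9, 4576 without LIPUS_7). For LIPUS against Control the 9415 calls became 3230, 2810 and 3264 after the same 3 scalings and 8655 to 10108 without 1 library. The cause was not tested. Members called numbered 5 in all 27 alternatives for Model against Control, where 3379 to 8953 of all genes tested were called. For LIPUS against Model none to 5 members were called, where 3 to 4576 of all genes were. For LIPUS against Control none to 5 members were called, where 2810 to 11020 of all genes were. The number of genes tested changed with the filter, and nothing is read from the member counts. Among single genes in Model against Control, median-of-ratios scaling turned Cst3 to 0.027 and Cstb to 0.15, quantile normalization turned Cst7 to 0.47 and Cyss to 0.77, and a pseudocount of 1 turned Cyss to 0.029, none of them called in the fit on FPKM or in the one that turned it. The replicate numbers did not pair the samples: correlations of same-numbered libraries ran from −0.42 to 0.25 over 15 pairs, 3 of them over 0.1, and a library correlated best with its own number in 5 of 30 cases. With the replicate block, 3 genes were called for LIPUS against Model. The labels leave lobe, animal and ultrasound intensity unstated or in conflict, and 5 libraries a group limit what differences in LIPUS could be called.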

Other observations

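A gene described in the table as an S100 calcium-binding protein of the ventral prostate, S100vp, differed from the members in Model_7, and it was picked out after its values were seen. Control averaged 5426 ± 1759 FPKM (SD, n = 5), Model 3981 ± 6705 and LIPUS 3915 ± 2686. Model_7, at 15663 FPKM, was above every Control library, the highest of which had 7848, while the members in Model_7 were below every Control library. The other Model libraries had 276, 3690, 58.1 and 219 FPKM. For Model against Control the log2 difference was −2.83 (SE 1.16, limma adjusted p = 0.0546).

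LOC296235, a row described as similar to cystatin S precursor, was passed over by the naming rule and followed the subunits with a correlation of 0.995 over 15 libraries. Control averaged 2303 ± 524 FPKM (SD, n = 5), Model 192 ± 317, with 747 in Model_7, and LIPUS 533 ± 427.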
